A study of Mus musculus with 6 samples.

Results

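The nuclear pore complex genes were examined in mouse NIH3T3 fibroblasts whose inserted DNA lay either at the nuclear periphery or in the nuclear interior. Members were the array probe sets that carry a single platform gene symbol beginning with Nup or Nupl and a digit, or the symbols Pom121, Ndc1, Aaas, Seh1l, Sec13, Rae1 or Ranbp2. This rule found 73 of 45101 probe sets, for 28 of 18193 genes named by 1 symbol. No probe set carried Tpr, the remaining symbol of the rule, alone. Each gene was represented by its brightest probe set, the one with the highest mean over all arrays.

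The study measured total RNA on 6 Affymetrix expression arrays, 3 of tethered and 3 of untethered cells. Tethered cells were clone M of NIH3T3, an immortalised mouse fibroblast line, with multiple insertions of the lac operator (lacO) and the insertion at the nuclear periphery. Untethered cells were the same clone with the same insertions, centrally placed. All cells grew in the same serum-containing medium, and the labels name no agent that sets the 2 groups apart. Because every array came from 1 clone, differences between clones were not measured. Separate cultures per array are not stated in the labels, so p-values measure only how these samples spread, and that spread may be technical.

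The nuclear pore complex is a channel through the nuclear envelope, built of many copies of a limited set of proteins called nucleoporins. The Y complex and the inner ring form its scaffold, membrane proteins anchor it where the nuclear membranes meet, and nucleoporins rich in phenylalanine-glycine repeats fill the channel and bind transport receptors. Filaments face the cytoplasm and a basket faces the chromatin. In dividing cells the complex comes apart at mitosis and is rebuilt on the new envelope, and further pores are inserted during interphase.

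Median intensities of the 6 arrays lay between 482.4 and 490.9, and the 95th percentile between 3385 and 3939. Both arrays numbered 1, 1 from each group, stood apart from the other 4 in overall expression. Of 10 fibroblast markers, 9 lay above the median signal, and the summed intensity of the list was 76568 to 101110 in tethered and 90994 to 100111 in untethered arrays. Of the markers of other cell types, 2 of 6 epithelial, 2 of 5 leukocyte, 2 of 5 endothelial and 3 of 5 muscle genes lay above the median signal. Epcam, an epithelial adhesion gene, was the brightest of these at a mean log2 intensity of 11.40.

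All 28 nuclear pore genes had a mean signal above the median of all probe sets and entered the test, with 59 of their 73 probe sets. None was called different between tethered and untethered cells (limma, Benjamini-Hochberg adjustment over 22518 probe sets, two-sided, smallest adjusted p = 0.999). Among all tested probe sets the share called was 0%. At an unadjusted p under 0.05 there were 0 nuclear pore genes, against 2.44% of the 11846 tested genes. In 24 of the 28 genes the difference was smaller than its own standard error, a larger share than the 68.9% of all tested genes. In 0 of the 28 did the tethered and untethered arrays fail to overlap, where 8.4% of all tested genes did not overlap.

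The log2 fold changes, tethered minus untethered, ran from -0.25 for Ranbp2 to 0.24 for Ndc1, with a median of -0.07 against -0.02 over all tested genes. Values below 0 belonged to 22 of the 28 genes, which is 78.6%, against 58.8% of all tested genes. That count depended on scale and on single arrays. After quantile normalization it was 16 of 28, with 47.5% of all genes below 0. Without tethered replicate 1 it was 11 of 28, with 50% of all genes, and without untethered replicate 3 it was 12 of 28, with 52.4%. Without both arrays numbered 1 it was 23 of 28, with 60.1% of all genes, and the median was -0.13. The plot of fold changes by role shows standard errors that cross 0 for most genes.

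**Figure D1:**
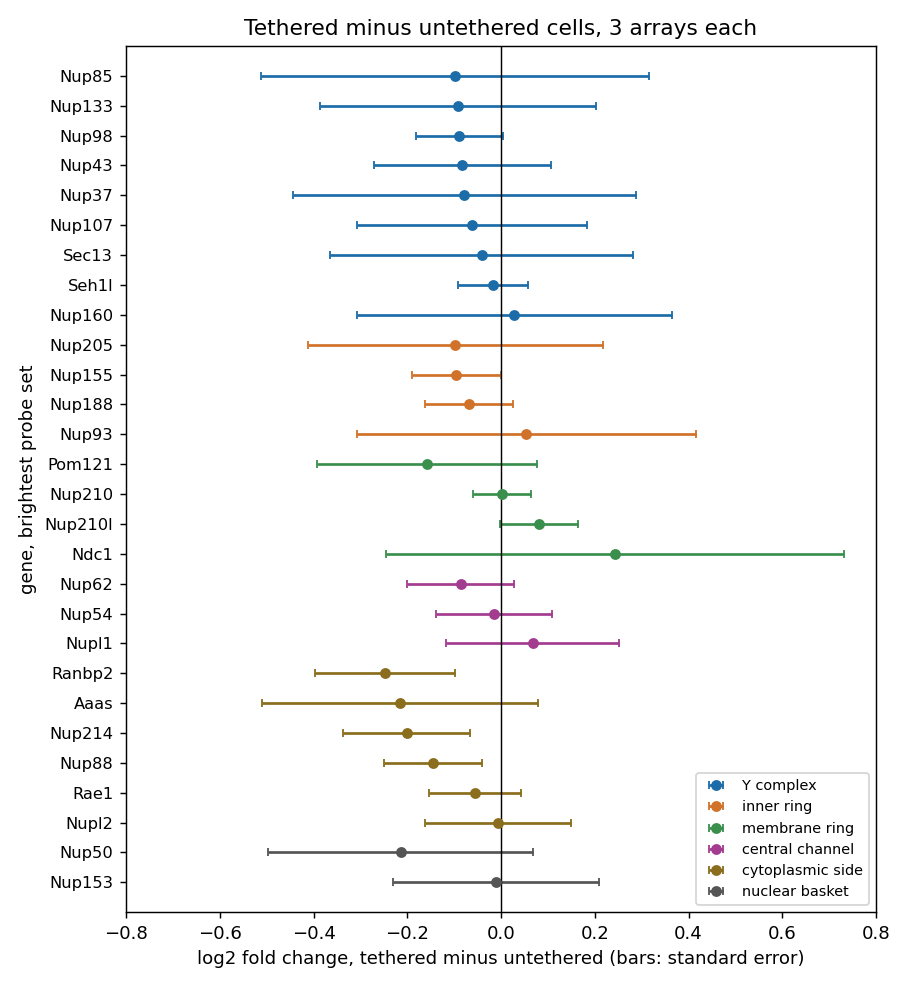
Log2 fold change of each nuclear pore gene (brightest probe set), tethered minus untethered cells, on the horizontal axis, with bars of 1 standard error (limma, 3 arrays per group) and colours for the role in the pore. Values run from -0.25 (Ranbp2) to 0.24 (Ndc1), and the bars are longest for Ndc1 and Nup85 and short for Nup210 and Seh1l.

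The precision differed greatly between members. The median standard error of the difference was 0.19 for nuclear pore genes and 0.10 for all tested genes. For Ndc1 the 95% interval of the difference reached from -0.95 to 1.44. For Nup210 it reached only from -0.15 to 0.15 and for Seh1l from -0.20 to 0.17. No covariate was fitted, so these errors include the differences of arrays numbered 1 from the others that are described further on.

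The Y complex, the outer scaffold of the pore, had 9 members measured, with 8 of 9 differences below 0 and a median of -0.08. Nup98 encodes a precursor that is cut into the channel protein Nup98 and the Y complex subunit Nup96. Its log2 intensities were 11.11, 11.20 and 11.26 in tethered cells, against 11.14, 11.42 and 11.27 in untethered cells. The groups overlapped, and the difference of -0.09 (SE 0.093) did not pass the test. Nup43, a propeller subunit of the Y complex, had 9.99, 10.12 and 10.46 in tethered cells, against 9.94, 10.36 and 10.52 in untethered cells (-0.08, SE 0.19). Nup133, at the tip of the Y, had 9.78, 10.20 and 10.62 in tethered cells, against 9.77, 10.51 and 10.59 in untethered cells (-0.09, SE 0.29). In both genes the array numbered 1 was the lowest of its group, and the differences within a group exceeded those between groups.

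The other Y complex members spanned a narrow range of differences with wide errors. Nup107, Nup37, Nup85 and Sec13 lay between -0.10 and -0.04, with standard errors from 0.25 to 0.41, and Nup160 stood at 0.03 (SE 0.34). Sec13 is shared with the coat of vesicles that leave the endoplasmic reticulum. Seh1l, which like Sec13 also works in nutrient sensing at the lysosome, was the steadiest of the complex. Its log2 intensity averaged 11.67 ± 0.08 in tethered and 11.69 ± 0.08 in untethered cells (SD, n = 3 each), a difference of -0.02 (SE 0.075).

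Of the inner ring, 4 members were measured, with 3 differences below 0 and a median of -0.08. Nup155, which links the ring to the membrane, had log2 intensities of 11.05, 11.08 and 11.14 in tethered cells, against 11.02, 11.20 and 11.33 in untethered cells. The tethered values lay close together inside the untethered range, with a difference of -0.10 (SE 0.094). Nup188, a large scaffold protein, had 10.73, 10.67 and 10.89 in tethered cells, against 10.70, 10.90 and 10.89 in untethered cells (-0.07, SE 0.094). Nup205, its relative, had 11.39, 11.90 and 12.24 in tethered cells, against 11.39, 12.05 and 12.38 in untethered cells (-0.10, SE 0.32). Nup205 thus spread widely within each group while Nup188 did not. Nup93, the linker that joins these large proteins, stood at 0.05 (SE 0.36).

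The membrane ring held the gene with the largest value above 0. Ndc1, a membrane protein needed for pore insertion, had log2 intensities of 10.89, 11.83 and 12.10 in tethered cells, against 10.55, 11.36 and 12.19 in untethered cells. Its difference of 0.24 (SE 0.49) was smaller than the spread in either group, and with 1 array left out it ran from -0.16 to 0.65. Pom121, which acts in the insertion of new pores, had 12.00, 12.20 and 12.55 in tethered cells, against 11.95, 12.66 and 12.61 in untethered cells (-0.16, SE 0.23). Nup210l, a relative of Nup210, had 9.98, 9.77 and 9.81 in tethered cells, against 9.70, 9.84 and 9.76 in untethered cells (0.08, SE 0.083). Nup210 itself, a glycoprotein of the pore membrane, stood at 0.001 (SE 0.062). Both Nup210 genes varied little between arrays, in contrast to Ndc1 and Pom121. Their mean log2 intensities were low, at 9.31 for Nup210 and 9.81 for Nup210l. The 2 leukocyte markers above the median signal, Cd3e and Adgre1, stood at 9.79 and 9.76, and the rest of that list lay lower. No detection calls were used, so whether the Nup210 genes were expressed was not tested.

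The central channel is lined by the trimer of Nup62, Nup54 and Nupl1, the last also called Nup58. Nup62 had log2 intensities of 11.86, 12.08 and 12.18 in tethered cells, against 11.98, 12.23 and 12.17 in untethered cells (-0.09, SE 0.11). Nupl1 had 9.84, 9.90 and 10.29 in tethered cells, against 9.72, 9.85 and 10.25 in untethered cells (0.07, SE 0.18). Nup54 had 11.15, 11.12 and 11.12 in tethered cells, against 10.89, 11.35 and 11.18 in untethered cells (-0.01, SE 0.12). The 3 tethered values of Nup54 were nearly equal and lay within the untethered range. None of the trimer's genes differed by as much as its standard error.

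The cytoplasmic side held the members with the smallest unadjusted p-values, and all 6 of its differences lay below 0, with a median of -0.17. Ranbp2, the large filament protein that binds Ran and attaches SUMO, had log2 intensities of 11.05, 10.92 and 11.34 in tethered cells, against 11.12, 11.48 and 11.46 in untethered cells. Its difference was -0.25 (SE 0.15; limma unadjusted p = 0.148, adjusted p = 0.999). Nup214 had 10.79, 10.97 and 11.11 in tethered cells, against 10.94, 11.35 and 11.19 in untethered cells (-0.20, SE 0.14). Its partner Nup88 had 11.30, 11.26 and 11.40 in tethered cells, against 11.27, 11.61 and 11.52 in untethered cells (-0.15, SE 0.11). In these 3 genes untethered replicate 1 lay among the tethered values, and untethered replicates 2 and 3 lay above all 3 tethered values. On these brightest probe sets the values stayed below 0 with any 1 array left out, from -0.31 to -0.07. The other tested probe set of Nup214 stood above 0, at 0.09 (SE 0.16), while all tested probe sets of Ranbp2 lay below 0. Without untethered replicate 1 alone, Ranbp2 and Nup88 had unadjusted p under 0.05 (limma) and neither passed the adjusted threshold. The share of all tested genes under 0.05 was not counted in that fit, so these p-values do not set the 2 genes apart. In it 62.6% of all genes lay below 0. Aaas, whose protein ALADIN is lost in triple-A syndrome of humans, stood at -0.22 (SE 0.29). Rae1, an mRNA export factor, stood at -0.06 (SE 0.098) and Nupl2 at -0.01 (SE 0.16). Nupl2 was the dimmest member, at a mean log2 intensity of 9.11, and whether it was expressed was not tested.

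The nuclear basket, which faces the chromatin, was represented by Nup50 and Nup153. Nup50, a cofactor of importin alpha, had log2 intensities of 10.33, 10.75 and 11.18 in tethered cells, against 10.50, 11.14 and 11.27 in untethered cells (-0.21, SE 0.28). Nup153, which anchors the basket and binds lamins, had 10.58, 10.59 and 11.00 in tethered cells, against 10.29, 10.91 and 10.99 in untethered cells (-0.01, SE 0.22). The groups overlapped over most of their range in both genes.

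Probe sets of the same gene did not always give the same sign. Of the 28 genes, 16 had at least 2 tested probe sets. Differences lay on both sides of 0 in 6 of them, all below 0 in 9 and all above 0 in 1, Ndc1, whose 3 probe sets ran from 0.004 to 0.44. The widest span was that of Nup205, with -0.10 on the brightest probe set and 0.51 on the other. Nupl1 followed with -0.30 to 0.25. The 5 tested probe sets of Nup62 ran from -0.26 to -0.003 and both of Pom121 stood at -0.18 and -0.16.

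The larger pattern among the nuclear pore genes ran across the groups, with most genes lowest in the arrays numbered 1. In 21 of the 28 genes both of these arrays, 1 tethered and 1 untethered, lay below all of the other 4, against 25% of all tested genes. In 0 of the 28 did both lie above the other 4, against 12% of all tested genes. Over all 59 tested probe sets of these genes the pattern was weaker. Both arrays lay below in 33, or 55.9%, against 23.3% of all tested probe sets. They lay above in 2, both of Nup133, against 2744 of all 22518 tested probe sets. The difference of array 1 from the mean of arrays 2 and 3, averaged over the groups, had a median of -0.35 over nuclear pore genes and -0.03 over all tested genes. It was below -0.5 in 12 nuclear pore genes, or 42.9%, against 7.46% of all tested genes. These counts carry no test, because both arrays numbered 1 were already known to stand apart.

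**Figure D2:**
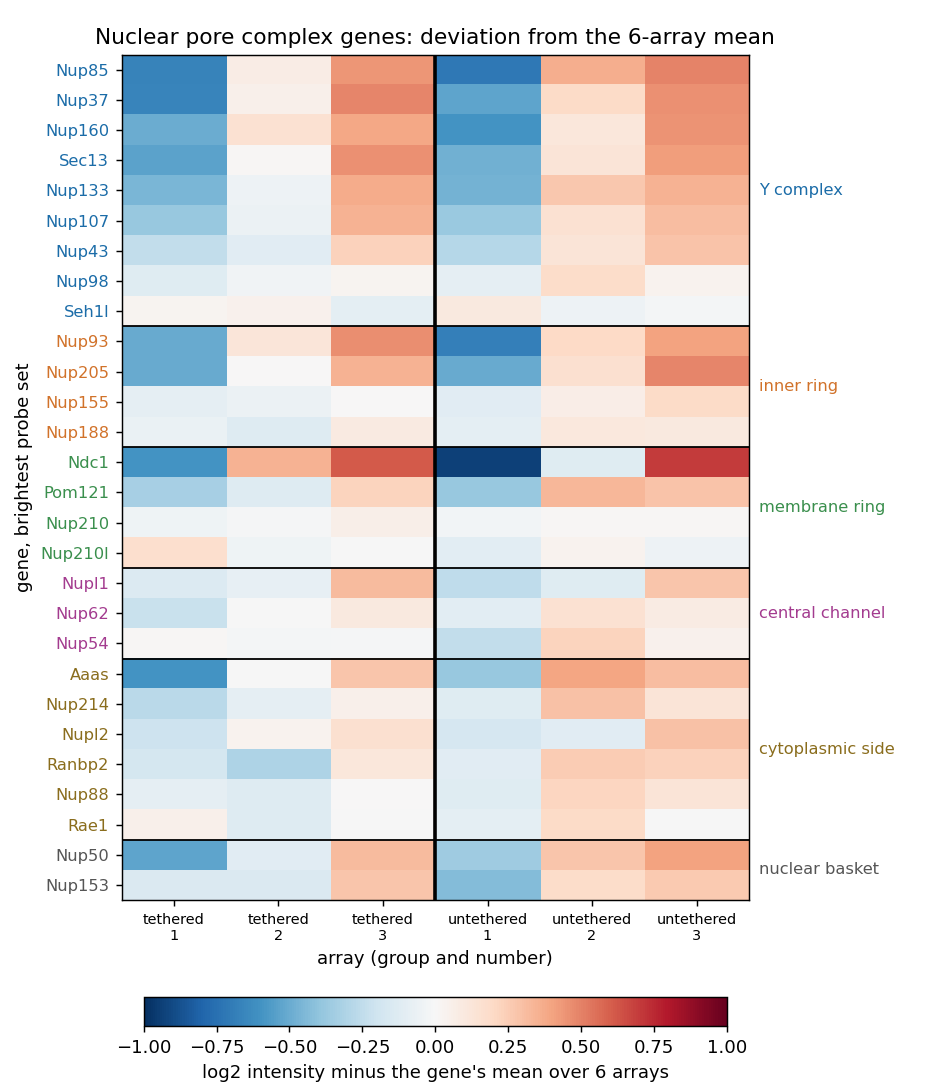
Log2 intensity of each nuclear pore gene minus its mean over the 6 arrays (colour), with the 3 tethered arrays left of the heavy line and the 3 untethered arrays right of it, and genes grouped by role. The columns of tethered and untethered array 1 are blue for most scaffold genes, and the rows of Seh1l, Nup210 and Nup54 are pale.

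Among the genes with the largest differences, Ndc1 stood at -1.15 in arrays numbered 1 against the others, Nup85 at -1.04, Nup93 at -0.89, Nup37 at -0.89, Nup160 at -0.82, Sec13 at -0.76, Nup205 at -0.75, Aaas at -0.73 and Nup133 at -0.70. Nup50, Nup107 and Pom121 lay between -0.67 and -0.53. Apart from Aaas and Nup50 these are scaffold and membrane genes. Nup85 and Nup93 were singled out after their values were seen. Nup85, in the arm of the Y complex, had log2 intensities of 10.19, 10.93 and 11.30 in tethered arrays 1 to 3, against 10.14, 11.22 and 11.36 in untethered arrays 1 to 3. Nup93 had 10.39, 11.02 and 11.36 in tethered arrays, against 10.21, 11.10 and 11.30 in untethered arrays. Within the same scaffold other subunits hardly moved with the array number. Seh1l stood at 0.10, Nup188 at -0.13, Nup155 at -0.15 and Nup98 at -0.16, and in all 9 of the 28 genes lay within 0.2 of 0, against 67.5% of all tested genes.

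The same members were low in array 1 of both groups. The median log2 difference of array 1 from arrays 2 and 3 over nuclear pore genes was -0.29 in tethered cells and -0.44 in untethered cells. Across the 28 genes the tethered and untethered differences had a Pearson correlation of 0.92 and a Spearman correlation of 0.897. Across all 11846 tested genes these were 0.72 and 0.593. The points on an axis share the same 3 arrays, so the correlations are descriptions.

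**Figure D3:**
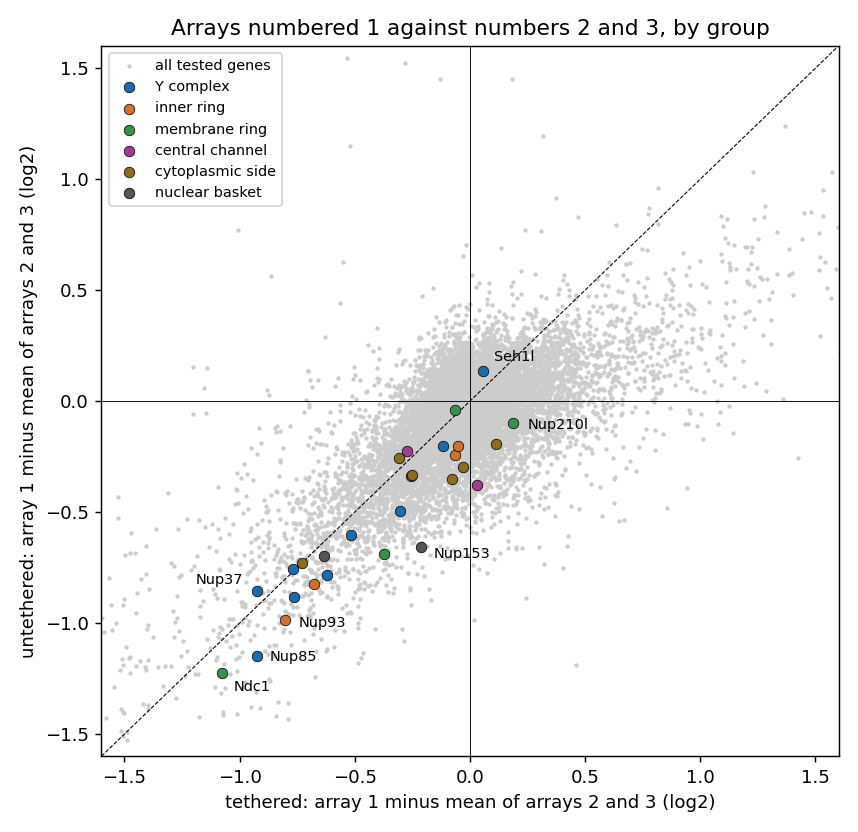
Array 1 minus the mean of arrays 2 and 3 (log2) in tethered cells on the horizontal and in untethered cells on the vertical axis, for all tested genes (grey) and nuclear pore genes (coloured by role). Axes end at 1.6 in size, and the dashed line marks equal values. Ndc1, Nup85, Nup93 and Nup37 lie far down the line at the lower left, while Seh1l and Nup210l lie near 0.

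The 95th percentile of intensity was lowest in the arrays numbered 1 but did not follow the array number throughout, and its part in the pattern was not tested. It was 3417, 3485 and 3896 in tethered arrays 1 to 3, against 3385, 3939 and 3912 in untethered arrays 1 to 3. Tethered array 2 thus lay close to the arrays numbered 1. The part of RNA integrity in the pattern was not tested either. The 5' minus 3' log2 signal, a gauge of RNA integrity, was for the transferrin receptor -2.09, -1.67 and -1.55 in tethered arrays 1 to 3, against -2.81, -3.07 and -1.52 in untethered arrays 1 to 3. That of the actin control was -0.29, -0.10 and -0.12 in tethered arrays, against -0.31, -0.56 and -0.15 in untethered arrays. For Gapdh it was 0.095, 0.088 and 0.082 in tethered arrays, against 0.038, -0.060 and 0.076 in untethered arrays. In all 3 controls untethered array 2 was the lowest of the 6. Apart from that array, both arrays numbered 1 were the lowest for the transferrin receptor and actin, but not for Gapdh. After quantile normalization, 18 nuclear pore genes had both arrays numbered 1 on 1 side of the other 4, against 39% of all genes, and the median difference of arrays numbered 1 was -0.30, against 0.03 over all genes.

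The choice of probe set mattered for some steady genes. Nup155 stood at -0.15 on its brightest probe set and at -0.65 on the other in arrays numbered 1 against the others. The 5 tested probe sets of Seh1l ran from -0.44 to 0.10 and those of Nup133 from -0.76 to 0.30. Nup50 ran from -0.67 to -0.06. Both probe sets of Nup85 (-1.11 and -1.04) and all 3 of Ndc1 (-1.33 to -0.86) were low in arrays numbered 1. The brightest probe sets of Nup107, Nup43, Nup54 and Nup62 carry a platform suffix for probes that can match transcripts of other genes.

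Other genes of nuclear transport were read from the same fit. Of 49 such genes, 48 were tested and 0 were called (limma; 0 also at an unadjusted p under 0.05), with a median of -0.03 and 30 values below 0. Among importins, the carriers of nuclear proteins, Ipo8 stood at -0.24 (SE 0.20), Kpna6 at -0.13 (SE 0.12) and Kpna1 at 0.17 (SE 0.16). Among exportins and mRNA export factors, Xpo1, the export receptor for many proteins, stood at -0.26 (SE 0.20), with Thoc2 at -0.19 (SE 0.12) and Thoc1 at -0.12 (SE 0.081), both subunits of the THO complex. The Ran list joined genes of the Ran cycle, which gives transport its direction, with genes named for binding Ran. In it Ranbp9 stood at -0.26 (SE 0.29), Ranbp3 at -0.04 (SE 0.13) and Ranbp10 at 0.02 (SE 0.069). Ranbp9 and Ranbp10 were listed by name, and a part of either in the cycle was not tested. Among pore-associated genes, Ahctf1, whose protein ELYS starts pore assembly on chromatin, stood at -0.06 (SE 0.070), Senp2 at 0.14 (SE 0.17) and Senp1 at -0.04 (SE 0.074), the last pair encoding SUMO proteases.

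In arrays numbered 1, 25 of the 48 transport genes lay below the other 4 arrays in both groups, again against 25% of all tested genes, and 2 of the 48, Ranbp9 and Ipo13, lay above, against 12%. The lowest and the highest were named after their values were seen. Mad2l1, a mitotic checkpoint gene, had log2 intensities of 9.70, 11.15 and 11.42 in tethered arrays 1 to 3, against 9.88, 11.08 and 11.53 in untethered arrays 1 to 3. Kpna2, an importin alpha, stood at -1.02 in arrays numbered 1 against the others, and Cse1l, its export receptor, at -0.93. Rangap1 stood at -0.81 and Rcc1 at -0.81, the GTPase-activating protein and the exchange factor of Ran. Ahctf1 stood at -0.09. At the other end Ranbp9 stood at 0.65, Xpot, the exportin of tRNA, at 0.34, Tnpo2, a transportin, at 0.23 and Ipo13 at 0.22. By role, the median was -0.70 in the Y complex, -0.55 in the basket, -0.45 in the inner ring, -0.29 in the membrane ring and -0.25 in both the channel and the cytoplasmic side.

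**Figure D4:**
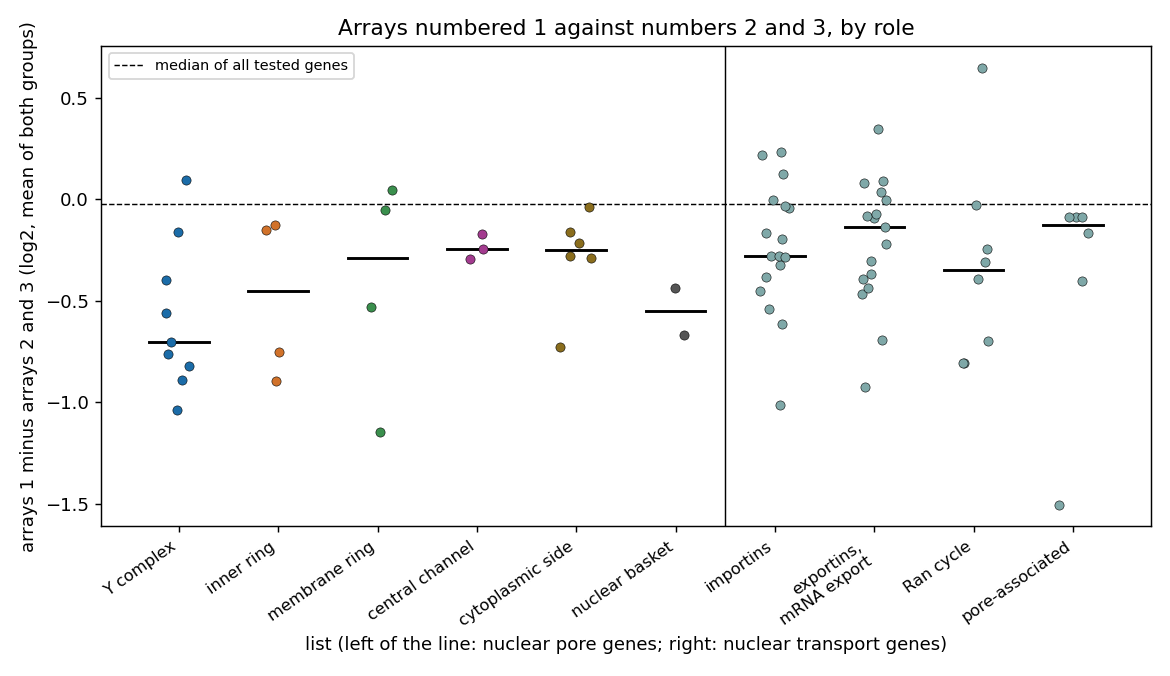
Arrays numbered 1 minus arrays 2 and 3 (log2, mean of the tethered and the untethered difference) for each gene (points), with nuclear pore genes by role left of the vertical line and nuclear transport genes right of it. Short bars are list medians, from -0.70 in the Y complex upward, and the dashed line is the median of all tested genes at -0.03.

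Promoter sequences from RefSeq (GRCm38.p6) were found for 24 of the 28 genes, in 27 windows from 250 bases before to 50 bases after a gene's start. Nup43, Nup85, Nup210l and Seh1l had no match. The windows were rich in G and C, with a median of 64% against 52.7% over all 32851 windows, and held a median of 28 CpG pairs against 7. Motifs were searched on both strands, and matches of different motifs may overlap. The SP1 letters GGGCGG were in 63% of member windows, against 35.7% of all windows, and the ETS letters CCGGAAG in 29.6%, against 8.86%. The NRF1 letters GCGCATGC were in 14.8% (4 of 27), against 2.71%, the YY1 letters AAGATGGCG in 14.8% (4 of 27), against 1.4%, and the E-box CACGTG in 14.8% (4 of 27), against 7.15%. The CRE letters TGACGTCA were in 11.1% (3 of 27), against 1.79%, and the E2F letters TTCCCGCC in 7.41% (2 of 27), against 2.19%. CCAAT was in 40.7%, against 37.4%, and TATAAA in 11.1% (3 of 27), against 13.6%. The set of all windows includes genes not tested here. It was not matched to the members for CpG content, so these shares do not show a trait of nuclear pore genes.

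Motif counts were also split by the difference of arrays numbered 1. Of the 12 genes below -0.5 in arrays numbered 1, 11 had a window in use, and 7 of these held the SP1 letters. Of the genes within 0.2 of 0, 7 had a window in use, and 6 of these held them. ETS letters were in 4 of the 11 and 3 of the 7, and NRF1 letters in 2 of the 11 and 0 of the 7. The 150 bases before the start are shown for some of the genes with a single window used. They are the 3 genes with the lowest difference (Ndc1, Nup160 and Sec13) and the 3 with the smallest difference in size (Rae1, Nup210 and Nup188). The members with the lowest differences can thus be set beside those with differences near 0. Capitals mark the motif letters searched, on either strand.
Ndc1 (chr4:107367897-107368046, plus strand): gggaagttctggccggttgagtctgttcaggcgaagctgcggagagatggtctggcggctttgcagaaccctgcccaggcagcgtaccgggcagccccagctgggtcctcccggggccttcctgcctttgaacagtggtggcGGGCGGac
Nup160 (chr2:90677065-90677214, plus strand): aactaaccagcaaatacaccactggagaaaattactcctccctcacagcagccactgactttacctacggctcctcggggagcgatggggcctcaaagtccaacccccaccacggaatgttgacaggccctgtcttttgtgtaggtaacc
Sec13 (chr6:113740682-113740831, minus strand): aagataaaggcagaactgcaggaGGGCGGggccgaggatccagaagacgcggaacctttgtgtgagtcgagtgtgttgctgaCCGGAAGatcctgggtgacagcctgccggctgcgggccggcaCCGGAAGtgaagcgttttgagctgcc
Rae1 (chr2:172999967-173000116, plus strand): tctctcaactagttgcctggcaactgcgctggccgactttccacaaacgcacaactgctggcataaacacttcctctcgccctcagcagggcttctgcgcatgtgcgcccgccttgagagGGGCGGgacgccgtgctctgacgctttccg
Nup210 (chr6:91116827-91116976, minus strand): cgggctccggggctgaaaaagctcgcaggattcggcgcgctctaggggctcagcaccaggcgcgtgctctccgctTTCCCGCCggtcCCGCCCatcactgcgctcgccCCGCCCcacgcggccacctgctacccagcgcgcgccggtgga
Nup188 (chr2:30286266-30286415, plus strand): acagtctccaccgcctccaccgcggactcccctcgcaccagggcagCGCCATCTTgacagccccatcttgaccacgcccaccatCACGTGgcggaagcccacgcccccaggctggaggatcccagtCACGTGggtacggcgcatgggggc

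The Nup160 stretch held none of the motifs searched, Sec13 held the ETS letters at 2 places, and Nup188 held the E-box at 2 places. A match is a description of letters in this window and no measurement of binding.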

How the data were processed

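The authors deposited 1 linear intensity per probe set and array, from biotin-labelled total RNA hybridised by standard Affymetrix protocols, per the labels. No source used here names the software for summarising and scaling, and nearly equal medians show that the arrays already shared a scale. Intensities were floored at 16 and taken to log2. The 64 control probe sets were left out. The 22518 probe sets with a mean above the median were tested with limma 3.58.1 in R 4.3.3 (linear model, empirical Bayes, all 6 arrays, no covariate, Benjamini-Hochberg, called under 0.05). The procedure was tested on simulated data. No detection calls were used, and 3 arrays per group limit the precision. Symbols come from the platform annotation, and all 28 gene identifiers were found in the RefSeq table.

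Every member is named. Values in each array are given for up to 3 members per role with the smallest unadjusted p, and up to 3 genes per transport list are named likewise. Members, lists and rules were chosen with earlier results of these data known. The alternatives were scaling, floor, filter, probe set choice, replicate block, moderation and left-out arrays.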

Additional observations from a re-analysis of the deposited data

How the results depend on the processing

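The number of nuclear pore genes called was 0 in all alternatives run, and so was that of transport genes; the smallest adjusted p of a member was 0.698 (limma, without both arrays numbered 1). With the replicate number as a block the count was 0 as well, and the smallest unadjusted p of a nuclear pore gene was 0.0528 (limma, Nup50). The block lowered the median standard error to 0.081 for nuclear pore genes and 0.077 for all tested genes, and that of Ndc1 to 0.12. The numbers were not taken as pairs, since deviations from the group means correlated at 0.71, 0.075 and 0.711 between same-numbered arrays 1, 2 and 3, and both arrays numbered 2 correlated better with number 3 of the other group. The count of genes with groups that do not overlap was 10 without both arrays numbered 1, against 43% of all genes, and 0 to 9 with 1 array left out. The 9 came without untethered replicate 1, against 23.6% of all genes, and it was 1 without untethered replicate 2, against 12.6%, and 0 without tethered replicate 1, against 25.9%. The count below 0 was 11 to 26 with 1 array left out. Fewer arrays make such separation more frequent.

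Signs of small values changed with the processing. Quantile normalization gave 0.031 for Nup153, 0.030 for Nup54, 0.0018 for Nupl2, 0.0029 for Rae1, 0.00075 for Sec13, 0.036 for Seh1l, 0.0012 for Ranbp3 and 0.012 for Senp1. Centring on medians gave 0.0014 for Nupl2. Averaging over the probe sets per gene above the median signal gave 0.019 for Nup188, 0.21 for Nup205, 0.016 for Seh1l, -0.052 for Ranbp10 and -0.019 for Senp2. Leaving out both arrays numbered 1 gave -0.010 for Nup160, -0.015 for Nup210l, -0.0083 for Nup93, 0.010 for Nupl2 and 0.0081 for Seh1l. With 1 array left out, 9 of 28 members kept their sign throughout. The others ran from -0.46 to 0.028 (Aaas), -0.16 to 0.65 (Ndc1), -0.26 to 0.11 (Nup107), -0.35 to 0.12 (Nup133), -0.23 to 0.12 (Nup153), -0.27 to 0.28 (Nup160), -0.37 to 0.13 (Nup205), -0.028 to 0.023 (Nup210), -0.36 to 0.23 (Nup37), -0.25 to 0.040 (Nup43), -0.14 to 0.092 (Nup54), -0.16 to 0.0044 (Nup62), -0.48 to 0.21 (Nup85), -0.28 to 0.32 (Nup93), -0.074 to 0.22 (Nupl1), -0.092 to 0.14 (Nupl2), -0.12 to 0.024 (Rae1), -0.29 to 0.21 (Sec13) and -0.047 to 0.027 (Seh1l). Among transport genes Ipo8 ran from -0.41 to 0.15, Ranbp10 from -0.020 to 0.055, Ranbp3 from -0.15 to 0.021 and Senp1 from -0.073 to 0.013. The cause of these changes was not tested.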

Other observations

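Of the 73 nuclear pore probe sets, 14 lay below the median signal and were not tested. In 2 of these, or 14.3%, the groups did not overlap, against 11.2% of all 22519 probe sets left out as dim, and both are described after their values were seen. A dim probe set of Seh1l had a mean log2 intensity of 7.34 ± 0.07 in tethered and 7.64 ± 0.03 in untethered cells (SD, n = 3 each), while the brightest probe set of the gene differed by -0.02. A dim probe set of Nup153 stood at 7.79 ± 0.05 in tethered and 8.16 ± 0.45 in untethered cells (SD, n = 3 each), with the wide spread coming from untethered replicate 2 at 8.68.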
